A study of Mus musculus with 14 samples.

Results

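H3K36me3 peaks that were called in wild-type (WT) round spermatids (RS) and met no peak of WT pachytene/diplotene spermatocytes (PD) are described here, together with the RNA of the genes beneath them. They were chosen by the peak calls themselves, as the autosomal rows of the RS WT peak list that shared not a single base with any row of the PD WT list, and 6643 of 34499 autosomal RS WT peaks (19.3%) qualified. These are called RS-only peaks, and the other 27856 are called shared peaks. Spermatocytes, cells late in prophase of meiosis, and round spermatids, the haploid cells that follow meiosis, had been separated by fluorescence-activated sorting, after Hoechst and propidium iodide staining, from testes of adult C57BL/6J mice that were either WT or labelled Setd2KO. The labels speak of Setd2 loss without giving the allele, the Cre driver or the deleted exons. Each of the 4 groups (PD WT, PD Setd2KO, RS WT, RS Setd2KO) had 2 libraries of polyadenylated RNA and 1 H3K36me3 peak list.

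Histone H3 trimethylated on lysine 36 (H3K36me3) is placed over the bodies of transcribed genes by Setd2, which travels with elongating RNA polymerase II. The mark builds up as a gene is transcribed and is usually densest away from the promoter. In male germ cells, transcription is reprogrammed after meiosis, when genes of the acrosome, the sperm tail and the condensing nucleus become active in round spermatids. Peaks called in round spermatids and not in spermatocytes are set here beside the RNA of both stages.

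The gene table held 19725 autosomal genes with coordinates of build mm9. Of these, 340 were overlapped by an RS-only peak and by no PD WT peak at all, and they are called gained genes. The name rests on peak calls alone, and a gain of the mark was not measured. Another 1639 genes carried an RS-only peak beside at least 1 PD WT peak and are called extended genes. The start sites of 33 gained genes lay inside an RS-only peak. The promoters of Spata20, Gtsf1l and Fam209 are printed because these were the genes with such a start among the 10 gained genes of highest RNA in RS WT that match the sequence table. Those of Izumo3, a spermatid gene wholly under 1 peak, and of Nup153, a nucleoporin gene active in both stages, are set beside them and were chosen after their values were seen. Sequences are from RefSeq, build GRCm38.p6, run 5′ to 3′ on the gene's strand from 250 bases before the start, and show the first 30 transcribed bases in capitals.
Spata20 (chr11:94485281-94485560, minus strand): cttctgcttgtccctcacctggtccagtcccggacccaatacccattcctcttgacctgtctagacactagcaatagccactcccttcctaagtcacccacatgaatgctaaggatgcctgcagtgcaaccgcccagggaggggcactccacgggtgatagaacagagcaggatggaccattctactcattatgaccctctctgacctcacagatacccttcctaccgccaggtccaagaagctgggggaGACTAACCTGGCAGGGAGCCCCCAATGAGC
Gtsf1l (chr2:163089572-163089851, minus strand): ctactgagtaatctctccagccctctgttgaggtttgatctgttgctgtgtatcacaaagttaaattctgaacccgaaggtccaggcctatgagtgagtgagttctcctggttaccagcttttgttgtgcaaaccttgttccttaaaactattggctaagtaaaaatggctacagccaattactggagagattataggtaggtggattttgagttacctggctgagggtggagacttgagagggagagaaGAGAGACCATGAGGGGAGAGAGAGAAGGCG
Fam209 (chr2:172472304-172472583, plus strand): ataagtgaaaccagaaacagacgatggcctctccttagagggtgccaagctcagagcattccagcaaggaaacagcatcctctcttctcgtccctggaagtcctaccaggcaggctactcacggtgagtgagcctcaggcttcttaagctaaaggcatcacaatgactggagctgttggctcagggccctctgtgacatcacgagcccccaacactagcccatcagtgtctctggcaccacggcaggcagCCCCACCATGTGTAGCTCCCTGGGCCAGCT
Izumo3 (chr4:92147192-92147471, minus strand): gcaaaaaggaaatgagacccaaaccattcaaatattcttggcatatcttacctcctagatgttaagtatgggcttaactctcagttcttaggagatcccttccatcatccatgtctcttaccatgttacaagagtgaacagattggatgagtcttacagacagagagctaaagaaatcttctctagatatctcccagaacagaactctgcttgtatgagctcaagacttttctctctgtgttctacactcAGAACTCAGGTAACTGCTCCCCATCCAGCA
Nup153 (chr13:46727820-46728099, minus strand): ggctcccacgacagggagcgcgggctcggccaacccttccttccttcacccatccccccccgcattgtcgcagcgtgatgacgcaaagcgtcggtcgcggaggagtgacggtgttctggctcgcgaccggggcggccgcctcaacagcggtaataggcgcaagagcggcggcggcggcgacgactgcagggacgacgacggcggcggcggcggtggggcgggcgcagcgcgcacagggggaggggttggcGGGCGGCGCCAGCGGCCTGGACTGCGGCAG

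The 4 spermatid promoters were poorer in GC than that of Nup153. Over the whole 300-base window, GC made up 56.7% of Spata20, 47.0% of Gtsf1l, 57.0% of Fam209 and 42.0% of Izumo3, against 74.0% of Nup153. CG dinucleotides numbered 4, 2, 7 and 0 in the 4 spermatid promoters and 45 in Nup153. Nup153 does not stand for all genes active in both stages. Among others with their start in an RS-only peak, chosen after their values were seen, GC varied. It made up 45.3% of Ahctf1, 59.3% of Pask, and 71.3% and 41.7% of the 2 Ptpdc1 promoters. Gained genes as a whole did not share the low GC of Izumo3. Their 328 promoters had a median of 58.8% GC, against 52.7% over the 32851 promoters of the table.

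A full cAMP response element, the palindrome TGACGTCA bound by CREM and other CREB-family factors, was searched for as a description because CREM drives many post-meiotic genes in mouse. It was found in 15 of the 328 promoters of gained genes (4.57%), in 2.49% of those of extended genes and in 1.79% of all promoters of the table. The 328 promoters belonged to 252 of the 340 gained genes, and overlapping starts of a gene repeat the same site. Trp53inp2, an autophagy and nuclear receptor cofactor gene chosen after its values were seen, shows one such site in capitals, beginning 41 bases before the start.
Trp53inp2 (chr2:155381606-155381885, plus strand): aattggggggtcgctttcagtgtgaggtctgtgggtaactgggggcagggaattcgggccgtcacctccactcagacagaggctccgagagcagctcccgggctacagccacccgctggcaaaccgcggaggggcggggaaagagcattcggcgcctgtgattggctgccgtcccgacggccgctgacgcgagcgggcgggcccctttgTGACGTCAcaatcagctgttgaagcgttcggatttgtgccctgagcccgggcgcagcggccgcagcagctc
Its RNA was at 0.527 and 0.624 FPKM in the PD WT libraries and reached 30.7 and 29.6 FPKM in those of RS WT, where FPKM is fragments per kilobase of gene model, scaled to the mapped fragments of the library. Of the 15 promoters with the element, 8 belonged to genes called higher in RS WT by the test described below. So did 120 of the 328 gained promoters, and 36% of all tested genes were called higher. Celf3 and Emc10 were counted repeatedly among the 8, through overlapping starts. Other genes with the element did not rise: Mterf1a had a mean of 2.46 FPKM in PD WT and 0.627 in RS WT, and Trmt61a 1.67 and 0.551. The core TGACG, which every full element also holds, stood in 23.5% of gained promoters and 20.8% of all promoters. GTTGCC, a part of the X box bound by RFX factors, stood in 12.5% of both. Both strands were searched for all 3 motifs, and a match is not a bound site.

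Marker genes were read first. The summed FPKM of 12 round spermatid markers was 1682 and 1595 in the RS WT libraries and 1037 and 1352 in the RS Setd2KO libraries. The same sum in PD libraries came to 4.55% and 5.49% of the RS WT mean in WT and to 15.7% and 10.0% of the RS Setd2KO mean in Setd2KO, so the PD Setd2KO libraries carried more spermatid marker RNA. A sum over 15 elongating spermatid markers was 5810 and 5762 in RS WT, against 2085 and 2263 in RS Setd2KO. Sertoli cell markers summed to 9.50 and 13.2 in RS WT, against 24.3 and 21.8 in RS Setd2KO, with 11 of the 16 matched markers below 1 FPKM in every group. Leydig cell markers stayed at 15.6 or less in every library. The macrophage and myoid sums in RS came mostly from Aif1 (223 and 204 FPKM in WT, 89.5 and 123 in Setd2KO) and Actg2 (74.98 and 77.1, then 22.4 and 21.8), with Csf1r and Cd68 near 0. Other myoid genes went the opposite way to Actg2. Acta2 rose from 0.137 and 0.704 FPKM with WT spermatids to 4.69 and 4.55 with Setd2KO ones, and Myh11 from 0.102 and 0.122 to 2.17 and 1.65. By the test described below, 3 of 5 tested myoid markers were higher in RS Setd2KO and 1 was lower, where 20.9% and 21.8% of all tested genes were. Depth worked back from the FPKM steps was 50.8 to 84.9 megareads, so that 1 read per kilobase was worth 0.0118 to 0.0197 FPKM. Setd2 itself is reported as the targeted gene. It was at 21.2 and 19.09 FPKM in the PD WT libraries, 21.0 and 21.4 in those of PD Setd2KO, 5.24 and 5.58 in those of RS WT, and 12.1 and 8.67 in those of RS Setd2KO, values over the whole gene model that do not check a deletion. PD WT peaks covered 99.8% of Setd2, and RS WT peaks covered none of it.

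RS-only peaks were short and faint beside shared peaks. Their median width was 1432 bases, from 474 to 63885, against 4295 for shared peaks. They covered 13.9 megabases in all, against 216 for the shared peaks. The score that the authors' peak caller gave each peak had a median of 80.7 in RS-only peaks and 327 in shared peaks. Scores below 60, close to the lowest score of 50 in the list, made up 21.9% of RS-only peaks and 3.83% of shared peaks. Peaks were chosen by position alone, and a peak that misses its partner by little counts as RS-only. Of the 6643, 275 lay within 100 bases of a PD WT peak and 2017 (30.4%) within 1 kb, while 284 were more than 100 kb away and the median distance was 2379 bases. On the other side of the rule, 17 shared peaks overlapped a PD WT peak by 10 bases or fewer and 186 by 100 bases or fewer. These figures describe what the rule selected and were not tested.

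The share of RS WT peaks with no PD WT partner followed width. It was 60.8% (exact 95% binomial interval 58.6 to 63.0, counting error only) among peaks up to 1 kb, 47.3% at 1 to 1.5 kb, 21.6% at 2 to 3 kb and 6.91% at 3 to 5 kb. It reached a low of 0.683% (0.458 to 0.979) at 10 to 20 kb, where 29 of 4248 peaks were RS-only. Among the widest peaks it was again higher, 2.15% (1.60 to 2.83) at 20 to 40 kb and 5.36% (3.31 to 8.16) above 40 kb. The share of PD WT peaks without an RS WT partner also fell and then rose, but its low came at narrower widths and its rise was steeper. It went from 6.64% at 3 to 5 kb to 13.5% at 10 to 20 kb, 21.9% at 20 to 40 kb and 40.4% above 40 kb. Scores fell at the wide end as well: the median score of all RS WT peaks was 890.2 at 10 to 20 kb, 498 at 20 to 40 kb and 156 above 40 kb. The 69 RS-only peaks wider than 20 kb held 17.5% of all RS-only bases, and 66 of them lay in genes. With 1 peak list per group, none of these shares has a replicate check.

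**Figure D1:**
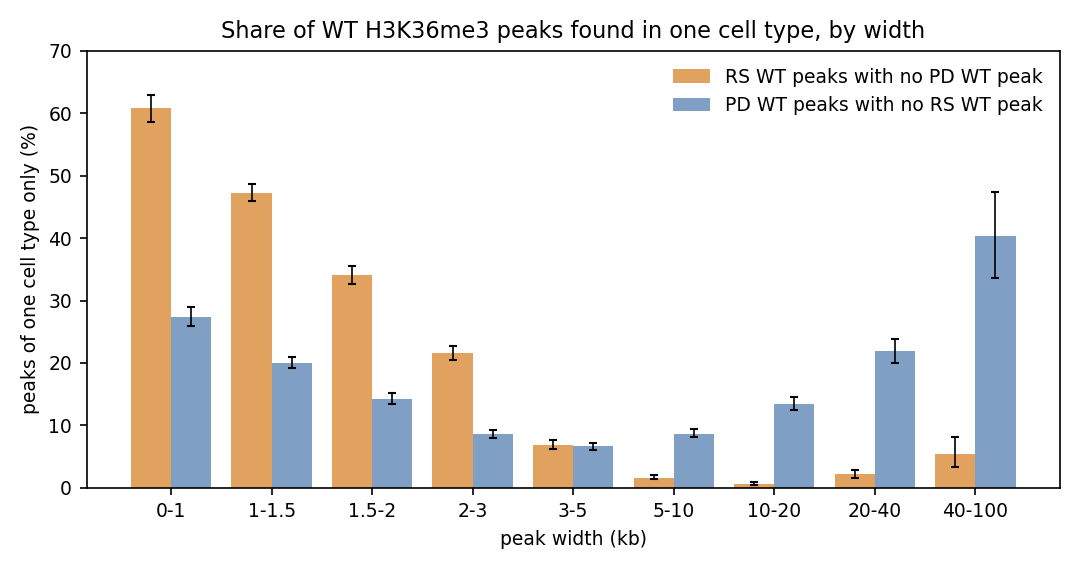
Percentage of autosomal WT peaks with no partner in the other cell type (y axis) in bins of peak width (x axis, kb), for RS WT peaks and PD WT peaks; error bars are exact 95% binomial intervals. The RS WT bars fall from 60.8% in the narrowest bin to 0.683% at 10 to 20 kb, and both series turn up again above 20 kb.

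Most RS-only peaks lay in genes that already carried the mark in spermatocytes. Genes held 4482 RS-only peaks (67.5%), against 81.0% of shared peaks. Extended genes took 4041 of them and gained genes 467, a peak that met genes of both kinds being counted under each. The other 2161 RS-only peaks lay outside genes, at a median of 18768 bases from the nearest one. Within genes of at least 10 kb, each of 10 equal parts of the gene body from start to end held between 9.19% and 11.5% of RS-only peaks and between 8.74% and 11.6% of shared peaks, with the highest value of both sets in the part nearest the gene's end. The RS-only share of RS WT peaks was lowest on chromosome 9 (14.0%) and highest on chromosome 13 (22.6%).

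Setd2KO peak lists were not used by the rule. An RS Setd2KO peak touched 27 RS-only peaks (0.406%, interval 0.268 to 0.591) and 278 shared peaks (0.998%, interval 0.885 to 1.12), with 0.884% over all RS WT peaks. PD Setd2KO peaks touched 6 RS-only peaks (0.0903%), against 0.209% of all RS WT peaks. Shorter peaks offer fewer bases to be touched, and the part of width in this gap was not tested. Among gained genes, 32 carried an RS Setd2KO peak somewhere in the gene (5.43% of all autosomal genes did) and 10 a PD Setd2KO peak (2.01% of all autosomal genes).

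The 5 widest RS-only peaks each spanned a gene or a large part of it. The widest (chr15:81416838-81480722, mm9, 63885 bases, score 181) covered 97.0% of Ep300, which encodes a histone acetyltransferase. The next lay over Eml4, a microtubule-binding protein gene of the extended class, and the third covered the whole of Ahctf1, whose product ELYS seeds nuclear pore assembly on chromatin. Tpr, a component of the nuclear pore basket, was 96.7% under the fourth, which lay 2155 bases from the nearest PD WT peak and also ran into its neighbour Prg4. R3hdm1 was under the fifth. By score, the leading peaks were over Tlk2 (2337, 73 bases from a PD WT peak), Hcfc2, Ppp4r4, Hydin and Cep120, of which Cep120, a centriole gene, was a gained gene and the others were extended genes. Thus 4 of the 5 highest-scored RS-only peaks lay in genes that also had a PD WT peak.

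Extended genes with the most RS-only bases show how far RS-only cover reached. The extended genes described next were chosen after their values were seen. Syne2, which encodes the nuclear envelope protein nesprin 2, had 30.5% of its length under 18 RS-only peaks and 1.40% under PD WT peaks. Its RNA was at 2.78 and 3.27 FPKM in the PD WT libraries, 2.95 and 3.17 in those of PD Setd2KO, 4.84 and 5.15 in those of RS WT, and 11.0 and 9.86 in those of RS Setd2KO, the highest level being in RS Setd2KO. Levels differed less between the stages in most others of the 10 extended genes with the most RS-only bases. Hydin stood at 16.3 and 13.6 FPKM in PD WT and 18.7 and 22.5 in RS WT. Agbl4 stood at 25.3 and 16.8 and then 18.6 and 27.8, and 1700007G11Rik at 51.3 and 68.4 and then 77.3 and 69.7. Cep350, a centrosomal protein gene, stood at 25.1 and 28.3 FPKM in PD WT and 27.9 and 27.0 in RS WT. R3hdm1 stood at 14.6 and 13.2 FPKM against 13.8 and 18.1. Smarca2, a chromatin remodeller gene, stood at 37.3 and 38.9 FPKM against 33.1 and 36.8, and Dnah6, a dynein heavy chain gene, at 23.0 and 22.4 against 22.0 and 22.9. Ift81, an intraflagellar transport gene, was 80.3% under 1 RS-only peak and 6.23% under PD WT peaks, with 22.8 and 28.5 FPKM in PD WT and 48.7 and 44.5 in RS WT. Fam179b and Nup214 ranked just outside these 10. Fam179b was 90.4% under RS-only peaks and went from 8.53 and 11.4 FPKM to 38.4 and 34.1. Nup214 was 64.4% under an RS-only peak, with 6.84 and 6.49 FPKM in PD WT and 10.4 and 11.6 in RS WT. In Eml4, by contrast, where RS-only bases made up 45.7%, the levels were 8.34 and 8.42 FPKM in PD WT and 3.66 and 3.13 in RS WT.

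Gained genes fell into poorly covered and well covered ones. The median gained gene had 11.2% of its length under RS-only peaks, 155 had less than 10%, and 257 had a single RS-only peak. In 58 genes (17.1%) the cover was at least 50%, and in 41 it was at least 90%. The cover went with the level of RNA in both stages: genes below 10% cover had a median of 0.788 FPKM in PD WT and 0.860 in RS WT, those at 10 to 50% had 1.34 and 1.74, and those at 50% or more had 11.1 and 10.6. In Setd2KO the medians of the best covered class were 13.0 FPKM in PD and 12.6 in RS. Of all 340, 190 reached 1 FPKM in PD WT and 199 in RS WT. Absence of a PD WT peak was uncommon for an active gene: of 5684 autosomal genes with at least 5 FPKM in PD WT, 261 (4.59%) had none, and 66 of those 261 were gained genes.

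The RNA libraries did not enter the choice of peaks, so RNA contrasts over gained genes were tested with limma on log2(FPKM + 1), all 11452 genes with a group mean of at least 1 FPKM being fitted together. A gene was called at a Benjamini-Hochberg adjusted p under 0.05 over all tested genes. The filter kept 252 of the 340 gained genes, and the 88 left out had a mean below 1 FPKM in every group. Separate animals are not named in the labels for libraries of one group, and the p-values therefore rest on a library-to-library spread that could be technical. All tested genes had a median log2 change of -0.21 from PD to RS in WT, -0.27 in Setd2KO, 0.19 from WT to Setd2KO in PD, 0.02 in RS, and -0.16 for the difference between the Setd2KO effects. Because other scalings moved the medians of the PD and cell type contrasts by about 0.1 or more, log2 changes from PD to RS, in PD, and between the effects are given relative to these medians, while each p-value tests the unadjusted change against 0. Log2 changes on this scale understate the change of low genes. In bulk samples, fewer cells of a type and less RNA per cell cannot be told apart.

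From PD to RS in WT, 114 of the 252 tested gained genes were called higher (45.2%, against 36% of all tested genes) and 88 lower (34.9%, against 46.7%). Tested genes with no WT peak in either stage gave 71.6% higher and 17.5% lower, so a lean to higher calls was not particular to gained genes. Those with WT peaks in both stages and no RS-only peak gave 20.1% and 59.8%. The median gained gene lay 0.31 above the all-gene median on the log2 scale. The counts for genes covered at 50% or more leaned the other way: of the 56 tested, 14 were called higher and 23 lower, and their median lay 0.04 below the all-gene median. Among the 196 tested genes with less cover, 100 were called higher and 65 lower. A gene could pass the filter on low values through 1 stage alone, as 21 tested gained genes did through RS (19 called higher, none lower) and 36 through PD (35 called lower, none higher). Among the 195 that passed through both stages, 95 were called higher and 53 lower. In Setd2KO, 117 gained genes were called higher from PD to RS (46.4%, against 34.2%) and 90 lower (35.7%, against 48.5%). Tested genes with no WT peak in either stage gave 72.9% and 17.8% there.

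**Figure D2:**
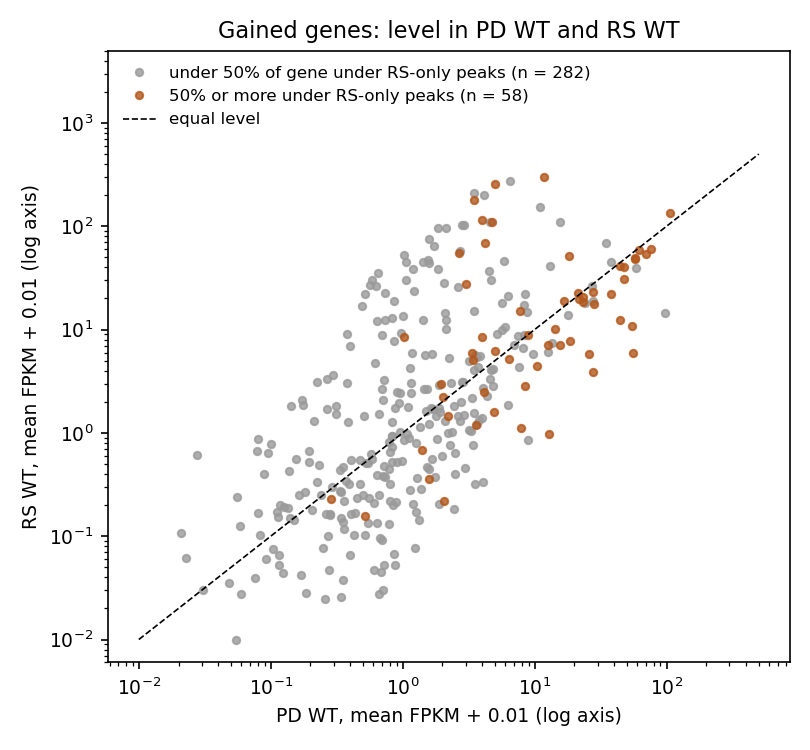
Mean FPKM + 0.01 in PD WT (x axis, log) against RS WT (y axis, log) for the 340 gained genes, coloured by whether RS-only peaks covered 50% of the gene or more; the dashed line marks equal levels. Of the 58 well covered genes, 9 lie at least 5-fold above the line at 5 FPKM or more in RS WT and most others lie near or below it, while the other genes scatter on both sides of the line.

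The well covered genes held 9 that were at least 5-fold higher in RS WT than in PD WT with 5 FPKM or more, and 26 with 20 kb or more of cover; this split was chosen after the values were seen. The 9 risers were 1763 to 10236 bases long, with a median of 4.00 FPKM in PD WT and 109.6 in RS WT. The 26 broad ones were 21623 to 65864 bases long, with medians of 22.2 FPKM in PD WT and 11.7 in RS WT, and 13 of them were called lower from PD to RS and 3 higher, where all tested genes gave 46.7% lower and 36% higher. All gained genes together held 57 such risers (16.8%, against 5.61% of all autosomal genes), and 21 of these had less than 10% of their length covered. Both kinds are taken up in turn.

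Spermatid genes led the risers. Spata20 (chr11:94340218-94346624, mm9), which encodes a spermatid thioredoxin-like protein, had an RS-only peak over 72.2% of its length including the start printed above. Its RNA was at 11.2 and 12.4 FPKM in the PD WT libraries, 29.3 and 18.4 in those of PD Setd2KO, 295 and 304 in those of RS WT, and 182 and 241 in those of RS Setd2KO. Every RS library lay far above every PD library. Relative to all genes it rose by 4.77 ± 0.21 (log2, SE) from PD to RS in WT (limma, adjusted p = 4.74e-09). Gtsf1l (chr2:162912767-162915337), a relative of the piRNA pathway gene Gtsf1, was 90.6% covered. It stood at 4.09 and 5.91 FPKM in the PD WT libraries, 26.6 and 15.1 in those of PD Setd2KO, 260.4 and 252 in those of RS WT, and 174 and 226 in those of RS Setd2KO. The rise in WT was 5.65 ± 0.24 (limma, adjusted p = 4.15e-09). Spata21 reached a like level with little RS-only cover. It stood at 5.59 and 7.34 FPKM in PD WT and 265 and 278 in RS WT (rise of 5.41 ± 0.23, limma adjusted p = 4.19e-09), with 5.82% of its length covered, at the 3′ end, by a peak that runs past the gene.

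Acrosome genes among the gained ones were Acrv1 and Eqtn, 2 of the 41 autosomal genes of the acrosome list (4.88%, where gained genes were 1.72% of all autosomal genes), of which 16 carried WT peaks in both stages and 18 in neither. Acrv1 (chr9:36500805-36506422), which encodes the acrosomal vesicle protein SP-10, was 42.0% covered from near its start. It stood at 2.86 and 4.03 FPKM in the PD WT libraries, 17.6 and 9.81 in those of PD Setd2KO, 238 and 182 in those of RS WT, and 116 and 154 in those of RS Setd2KO. Its rise of 5.78 ± 0.25 (limma, adjusted p = 4.42e-09) was the largest of the genes described here. Eqtn, which encodes the acrosomal membrane protein equatorin, had 10.9% of its length covered, at its start. Its levels were 1.48 and 2.19 FPKM in the PD WT libraries, 8.28 and 4.78 in those of PD Setd2KO, 103 and 89.9 in those of RS WT, and 45.01 and 66.1 in those of RS Setd2KO. Across the acrosome list, 33 of 40 tested genes were called higher from PD to RS in WT and 1 lower, where 36% and 46.7% of all tested genes were. Fam209, whose product is linked to acrosome biogenesis in mouse, was 84.4% covered. It stood at 2.71 and 4.20 FPKM in the PD WT libraries, 21.0 and 10.5 in those of PD Setd2KO, 188 and 175 in those of RS WT, and 127 and 168 in those of RS Setd2KO.

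Genes of sperm-egg binding, the tail and post-meiotic control gave 1 gained gene each. Izumo3 (chr4:91811009-91813912), of the family of the sperm fusion protein Izumo1 and the single gained gene among 23 of the sperm-egg list, was covered in full by 1 peak. Its levels were 3.89 and 4.46 FPKM in the PD WT libraries, 10.6 and 6.65 in those of PD Setd2KO, 73.1 and 64.4 in those of RS WT, and 48.5 and 63.8 in those of RS Setd2KO (rise in WT of 3.96 ± 0.20, limma adjusted p = 1.06e-08). Cabyr, a calcium-binding protein of the fibrous sheath and the single gained gene among 20 of that list, had 8.25% of its length covered, at the 3′ end. It rose from 3.35 and 4.87 FPKM in PD WT to 203 and 200.3 in RS WT, by 5.54 ± 0.23 relative to all genes (limma, adjusted p = 3.64e-09). Fhl5, which encodes the CREM coactivator ACT, was the single gained gene among 30 post-meiotic transcription and mRNA storage regulators. A peak over its start covered 1.53% of it, and its RNA went from 1.45 and 2.82 FPKM in PD WT to 103 and 90.6 in RS WT. Fam205c, and Glipr1l1, a sperm surface protein gene, complete the leading risers with 117 and 115 FPKM and with 122 and 99.1 FPKM in RS WT. Foxj1, the transcription factor of motile cilia, and Klf4, both chosen after their values were seen, went from 1.14 and 2.31 to 69.5 and 58.5 FPKM and from 0.867 and 1.23 to 41.4 and 48.1 FPKM.

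**Figure D3:**
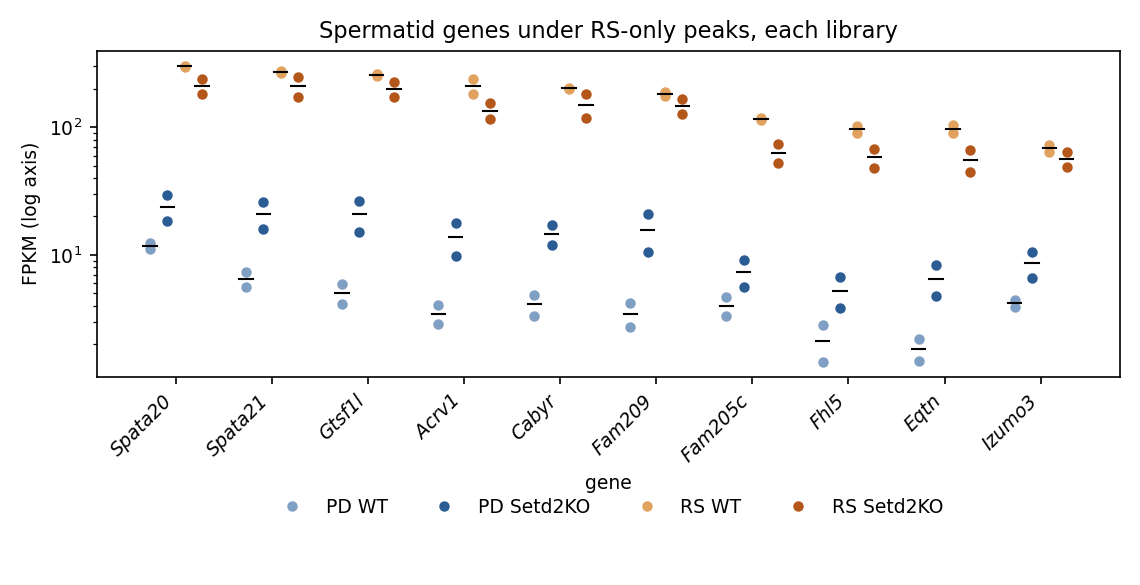
FPKM (y axis, log) of 10 spermatid genes under RS-only peaks (x axis) in each of the 8 libraries, coloured by group; points are libraries and bars are group means. RS libraries of both genotypes sit above all PD libraries for every gene shown, and PD Setd2KO points sit above PD WT points.

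No gained gene came from the protamine and transition protein, histone exchange, Tssk kinase, axoneme, sperm glycolysis, CatSper, synaptonemal complex, piRNA, H3K36 or housekeeping lists. These lists held 5 to 57 autosomal genes each. Gained genes were 1.72% of all autosomal genes, so absence from any 1 list lies near that share. The 5 protamine and transition protein genes, for example, were marked in both stages in 4 cases and in neither in 1. The manchette and head shaping list gave 3 gained genes of 35, and they went different ways. Spata20 rose as above. Bag6, a chaperone gene required for spermatogenesis in mouse, was 98.2% covered, with 94.04 and 118 FPKM in PD WT and 129 and 139 in RS WT (limma, adjusted p = 0.069). Cntrob, which encodes the centriole protein centrobin, was 99.8% covered and fell from 13.1 and 12.5 FPKM in PD WT to 0.975 and 0.946 in RS WT, by 2.60 ± 0.12 relative to all genes (limma, adjusted p = 3.1e-09).

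The broadly covered genes were active in spermatocytes as well, and their RNA went up, down or neither. Ep300 (chr15:81416644-81482507) was 98.7% covered. It stood at 3.43 and 3.28 FPKM in the PD WT libraries, 3.24 and 3.19 in those of PD Setd2KO, 5.81 and 6.15 in those of RS WT, and 3.75 and 4.38 in those of RS Setd2KO, so that the RS WT libraries were the highest. The rise in WT was 0.89 ± 0.11 relative to all genes (limma, adjusted p = 0.000138). Ptpdc1, a phosphatase-domain gene, was 99.5% covered with 65.4 and 75.5 FPKM in PD WT and 49.4 and 59.6 in RS WT. Naa25, a subunit of an N-terminal acetyltransferase, shared its peak with the neighbour Erp29 and stood at 19.6 and 23.0 FPKM in PD WT and 23.5 and 21.9 in RS WT (limma, adjusted p = 0.539).

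Several fell from PD to RS in WT while the whole gene lay under an RS-only peak. Gmcl1, the mouse germ cell-less gene, went from 66.0 and 44.8 FPKM to 4.36 and 7.50, a relative log2 change of -2.82 ± 0.23 (limma, adjusted p = 1.52e-07). Bub1b, the spindle checkpoint kinase BubR1, went from 26.3 and 24.9 FPKM to 5.37 and 6.20 (relative log2 change of -1.76 ± 0.15, limma adjusted p = 1.73e-07). Nap1l4, a nucleosome assembly protein gene, went from 51.9 and 57.6 to 10.1 and 11.7 FPKM (relative log2 change of -2.02 ± 0.14, limma adjusted p = 3.31e-08). Trrap and Smg9 also fell, from 11.6 and 6.27 to 0.663 and 1.03 FPKM and from 85.7 and 109.7 to 14.5 and 14.6 FPKM, but with 3.40% and 24.1% of their length covered. Nap1l4, Bub1b and Gmcl1 were each under a single peak that ran past both ends of the gene.

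**Figure D4:**
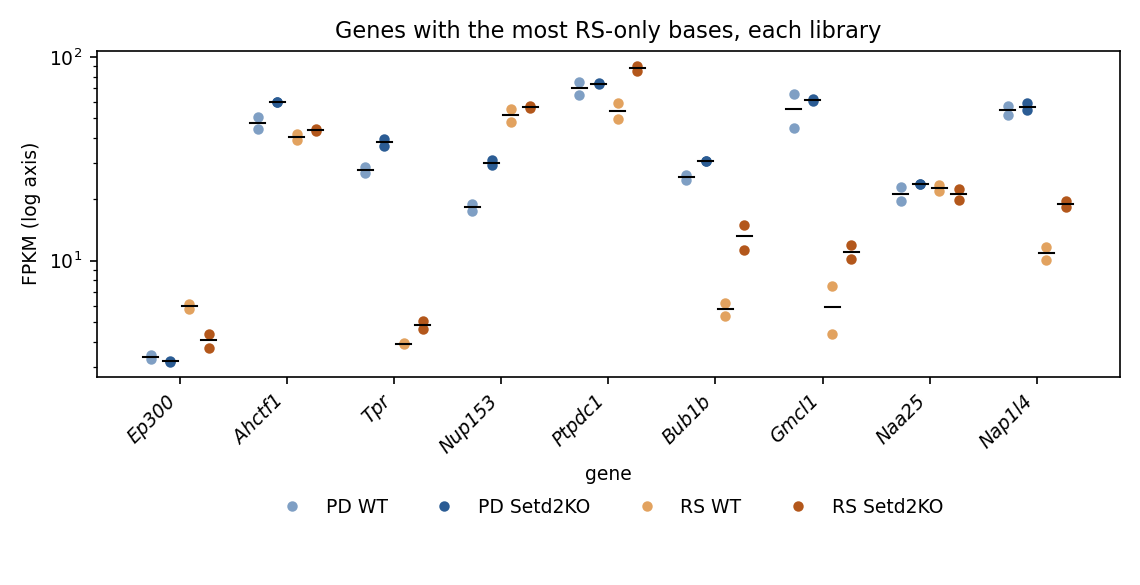
FPKM (y axis, log) of 9 gained genes among the 10 with the most RS-only bases (x axis) in each of the 8 libraries, coloured by group; points are libraries and bars are group means. Tpr, Bub1b, Gmcl1, Nap1l4 and, narrowly, Ahctf1 are lower in all RS than in all PD libraries. Nup153 and Ep300 are higher in all RS libraries, and Naa25 and Ptpdc1 overlap.

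Nuclear pore genes stood out among the broad peaks by eye, and a list of 32 autosomal ones was added after their values were seen. Of these, 6 were gained genes (18.8%, against 1.72% of all autosomal genes), 24 had WT peaks in both stages, and 2 were extended genes. The gained ones were Ahctf1, Nup153, Nup210, Nup98, Sec13 and Tpr. These build the channels through which RNA and protein pass the nuclear envelope. Of the 33 nuclear pore genes in the RNA tables, 1 not autosomal, 32 could be tested, and 11 of these were called higher from PD to RS in WT and 13 lower, where 36% and 46.7% of all tested genes were.

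Within the nuclear pore genes the gained ones differed widely. Ahctf1 (chr1:181675035-181734146) was fully covered and stood at 44.2 and 50.7 FPKM in the PD WT libraries, 60.01 and 59.9 in those of PD Setd2KO, 42.1 and 39.2 in those of RS WT, and 43.2 and 44.0 in those of RS Setd2KO (limma, PD to RS in WT, adjusted p = 0.163). Tpr (chr1:152239968-152297065), which overlaps another gene so that reads of the pair may not be told apart, went from 28.7 and 26.9 FPKM in PD WT to 3.89 and 3.94 in RS WT, a relative log2 change of -2.34 ± 0.12 (limma, adjusted p = 5.18e-09). Nup153 (chr13:46775271-46823218), another basket component, was 99.7% covered and went the opposite way. It stood at 17.5 and 18.9 FPKM in the PD WT libraries, 31.0 and 29.4 in those of PD Setd2KO, 48.1 and 55.7 in those of RS WT, and 56.2 and 57.5 in those of RS Setd2KO. Its rise in WT was 1.67 ± 0.14 relative to all genes (limma, adjusted p = 1.12e-06). Nup98, with 0.995% of its length covered, and Sec13, with 88.7%, stood at 61.7 and 76.9 FPKM and at 32.2 and 30.01 FPKM in RS WT. Nup210 stayed below 1 FPKM in every group and was not tested.

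Setd2KO was compared with WT in round spermatids for the RNA of gained genes. Of the 252 tested gained genes, 63 were called higher in RS Setd2KO (25%, against 20.9% of all tested genes) and 58 lower (23.0%, against 21.8%), and the median log2 change was 0.01. The higher count was 36 without RS WT replicate 1 and the lower count 36 without RS Setd2KO replicate 1. Among the 114 genes that were called higher from PD to RS in WT, 17 were higher in RS Setd2KO and 42 lower (36.8%), while among all 4117 genes so called 38.2% were lower. Elongating spermatid markers moved with these falls: 12 of 15 were called lower in RS Setd2KO, and their part in the result was not tested. The contrast shares the RS WT libraries with the PD to RS contrast.

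The falls in RS Setd2KO were led by Chrne, which encodes a subunit of the muscle acetylcholine receptor and overlaps another gene. It stood at 22.3 and 19.7 FPKM in RS WT, against 2.05 and 2.20 in RS Setd2KO, a log2 change of -2.82 (limma, adjusted p = 6.39e-07). Its levels were 5.35 and 7.28 FPKM in PD WT and 0.507 and 0.417 in PD Setd2KO, so both stages were lower. Dscc1, a sister chromatid cohesion gene, stood at 9.80 and 8.23 FPKM in RS WT, against 1.76 and 2.14 in RS Setd2KO (log2 change of -1.76, limma adjusted p = 6.64e-06). Its PD libraries lay between 0.194 and 0.627 FPKM in both genotypes. Slc35g3, a solute carrier family gene 96.8% under 1 peak, fell from 57.6 and 52.7 to 15.6 and 24.4 FPKM (log2 change of -1.45, limma adjusted p = 9.61e-05). Sec11c, a signal peptidase subunit, fell from 13.2 and 11.7 to 3.56 and 4.98 FPKM, and Necab3, a calcium-binding protein gene that overlaps another gene, from 24.3 and 21.1 to 7.30 and 12.1 FPKM. Of the leading spermatid genes, Spata20 (limma, adjusted p = 0.0697), Gtsf1l (0.247), Acrv1 (0.0656) and Izumo3 (0.253) were not called in this contrast, although every RS Setd2KO library was below every RS WT library for each of them. Fam205c (log2 change of -0.89, limma adjusted p = 0.0077), Eqtn (-0.81, 0.0184), Fhl5 (-0.74, 0.0368) and Glipr1l1 (-0.59, 0.04) were called lower. All 4 calls were lost without the first RS WT library (-0.87, -0.71, -0.66 and -0.44 in the same order) and without the first RS Setd2KO library (-0.65, -0.54, -0.50 and -0.43). Those of Eqtn, Fhl5 and Glipr1l1 were also lost without the second RS WT library (-0.91, -0.83 and -0.73). With no filter on low values the same calls were lost (limma, adjusted p = 0.0538, 0.0895 and 0.0785). Adding the replicate number to the fit ended those of Fhl5 (limma, adjusted p = 0.0554) and Glipr1l1 (0.057). A pseudocount of 0.1 ended that of Fhl5 (limma, adjusted p = 0.0812).

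Ep300 stood at 3.75 and 4.38 FPKM in RS Setd2KO against 5.81 and 6.15 in RS WT, a log2 change of -0.47 (limma, adjusted p = 0.00649). The call was lost without RS WT replicate 2 (log2 -0.43) and without RS Setd2KO replicate 1 (log2 -0.38).

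The rises in RS Setd2KO included several genes whose RS WT level was low. Epha7, an ephrin receptor with 0.660% of its length covered, stood at 1.63 and 1.55 FPKM in RS WT, against 7.05 and 6.81 in RS Setd2KO, a log2 change of 1.61 (limma, adjusted p = 2.53e-06). Idh1, the cytosolic isocitrate dehydrogenase, went from 2.59 and 2.84 to 8.93 and 6.40 FPKM (log2 change of 1.21, limma adjusted p = 0.00027). Cyb5r2, a cytochrome b5 reductase 57.6% under 3 peaks, went from 2.13 and 2.28 to 5.68 and 5.80 FPKM. Wipi1, an autophagy gene with 7 RS-only peaks over 44.2% of its length, went from 5.48 and 6.07 to 11.5 and 12.9 FPKM (log2 change of 0.96, limma adjusted p = 7.84e-05). Bub1b, which fell after meiosis in WT, stood at 15.0 and 11.3 FPKM in RS Setd2KO against 5.37 and 6.20 in RS WT (log2 change of 1.05, limma adjusted p = 0.000271). Nap1l4 stood at 19.6 and 18.4 against 10.1 and 11.7 FPKM (log2 change of 0.75, limma adjusted p = 0.0014). Ptpdc1 stood at 90.6 and 85.5 against 49.4 and 59.6 FPKM (log2 change of 0.69, limma adjusted p = 0.00403), a call that was lost without RS WT replicate 1 (log2 0.56). In the meiotic division list, which holds Bub1b and Cdc25c, 14 of 23 tested genes were called higher in RS Setd2KO and 1 lower, where 20.9% and 21.8% of all tested genes were. The summed level of the spermatocyte markers was 292 and 286 FPKM in RS WT, against 359 and 344 in the RS Setd2KO libraries, with 4 of 11 tested markers called higher and 2 lower. That of the spermatogonial markers was 111 and 132 FPKM, against 157 and 158, with 4 of 9 called higher and 2 lower. The part of these markers in the list's count was not tested. Cdc25c, the phosphatase that activates CDK1, stood at 13.4 and 11.4 FPKM in RS WT, against 17.7 and 19.7 in RS Setd2KO. Its call (log2 change of 0.56, limma adjusted p = 0.0299) was lost when any 1 of the 4 RS libraries was left out, with changes of 0.45 to 0.67, and also with a pseudocount of 0.1 (0.0771) or no filter on low values (0.0684).

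In spermatocytes, where gained genes had no WT peak, 99 of the 252 were called higher in Setd2KO (39.3%, against 29.8% of all tested genes) and 18 lower (7.14%, against 6.3%). Tested genes with no WT peak in either stage gave 44.4% higher and 4.2% lower, so the excess of higher calls was not particular to gained genes. Of the 56 well covered genes tested, 12 were called higher (21.4%) and 8 lower. The 196 gained genes with less cover gave 87 higher (44.4%) and 10 lower. The higher calls made up 84.6% of all calls among gained genes on the deposited scale, 73.2% after upper-quartile scaling and 51.9% after quantile normalization, where calls among all tested genes gave 82.5%, 67.2% and 45.7%. Relative to all genes the median gained gene moved by 0.03. The largest rises were in spermatid genes. Gtsf1l was higher in PD Setd2KO by 1.64 relative to all genes (limma, adjusted p = 0.000547), Fam209 by 1.67 (0.000819) and Acrv1 by 1.498 (0.000914). Round spermatid markers, Acrv1 among them, moved with these rises: 10 of 12 were called higher in PD Setd2KO and 1 lower, and their sum was 74.6 and 89.9 FPKM in PD WT and 187.5 and 119.8 in PD Setd2KO. The first PD Setd2KO library was above the second both in that sum and in each of the 10 spermatid genes plotted. The part of spermatid RNA in these values was not tested. Among genes that were lower, Nmnat3, an NAD synthesis enzyme gene, stood at 15.2 and 20.3 FPKM in PD WT and 11.5 and 9.13 in PD Setd2KO, and Erp29, an endoplasmic reticulum chaperone gene, at 48.9 and 65.6 and then 33.5 and 35.8 FPKM. Their calls were lost without PD Setd2KO replicate 2 for Nmnat3 (log2 -0.57) and replicate 1 for Erp29 (log2 -0.65).

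**Figure D5:**
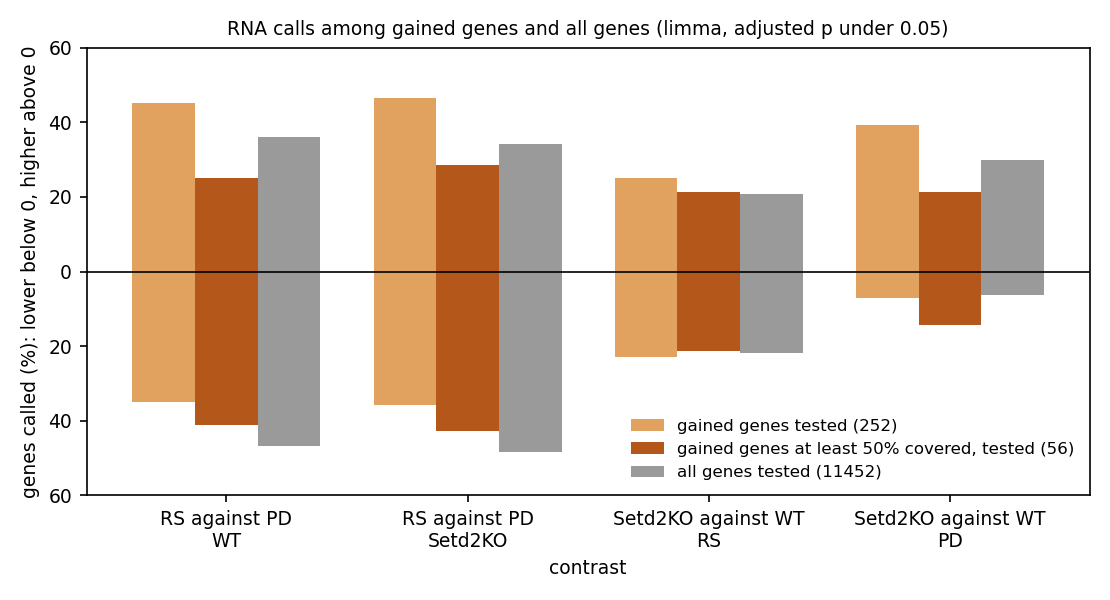
Percentage of tested genes called by limma (y axis; higher above 0, lower below 0) in 4 contrasts (x axis), for the 252 gained genes tested, the 56 of them at least 50% covered, and all 11452 genes tested. Gained genes show 45.2% higher calls from PD to RS in WT, against 36% of all genes, and genes at least 50% covered show 25%.

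Whether the Setd2KO effect in RS was unlike that in PD was tested as an interaction. It was called below 0 in 82 gained genes (32.5%, against 27.3% of all tested genes) and above 0 in 28 (11.1%, against 7.76%). Tested genes with no WT peak in either stage gave 46.6% below 0 and 10.4% above. The share of calls above 0 among gained genes was 25.5% on the deposited scale, 37.3% after upper-quartile scaling and 49.2% after quantile normalization, where calls among all tested genes gave 22.1%, 40.9% and 52.9%. Of the 114 genes called higher from PD to RS in WT, 62 were called below 0 (54.4%, against 51.2% of all genes so called). In Acrv1, Gtsf1l and Eqtn, which had the largest differences below 0 among the genes named, PD Setd2KO was above PD WT while RS Setd2KO was below RS WT.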

How the data were processed

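Per the labels' protocols, polyadenylated RNA was sequenced in 8 directional libraries and H3K36me3 chromatin immunoprecipitation gave 4 peak lists. Input libraries were not analysed here. The submitters' processing notes name CASAVA, TopHat2, Cufflinks and Cuffdiff, and Bowtie and bedtools, with build mm9; versions, and whether spike-in chromatin entered the scaling, are not given in the sources used here. The authors deposited FPKM per gene and library, and peaks with a score, whose names carry MACS. Peaks were compared by overlap of at least 1 base. FPKM were transformed as log2(FPKM + 1), a gene was kept where any of the 4 group means reached 1 FPKM, and limma 3.58.1 (R 4.3.3, trend) fitted 5 contrasts with Benjamini-Hochberg adjusted p-values called under 0.05. Peaks and sequences were handled with Python 3.11.15, pandas 2.3.3, numpy 2.4.6 and scipy 1.17.1, and figures were drawn with matplotlib 3.10.9. The fit was tested on simulated data.

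Depth was worked back from FPKM steps, with ratios of read counts taken as whole within 0.003. At the depth chosen, 98.7% of length tests came out whole, and the depth was tuned to this share. Precision is limited by 2 libraries per group, whose log2 values correlated at 0.992 to 0.995 over genes. Replicate numbers were not used as pairs, since deviations of same-numbered libraries correlated at -0.309 to 0.0682. Intervals on peak shares are exact binomial, at 95%.

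The members and gene lists were chosen with earlier results of these data known. Genes named are, among gained genes, the 10 with the most RS-only bases, the 10 with the highest RS WT mean, the 5 largest called changes per direction from PD to RS in WT and for Setd2KO in RS, the 3 largest for Setd2KO in PD and for the difference between effects (libraries of the groups not overlapping, at least 5 FPKM in the higher group), up to 4 per gene list, and genes under the 5 widest and 5 highest-scored peaks; others are marked as chosen afterwards. Alternatives were the pseudocount, the filter, upper-quartile and quantile scaling, the replicate block, leaving out each library, stricter peak rules and, added after seeing the data, genes with 1 interval and no overlapping gene. A result withheld for evaluation is not reported here.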

Additional observations from a re-analysis of the deposited data

Results flagged for a closer look

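In 24 of the named gained genes the Setd2KO effect differed between RS and PD by the interaction test of limma (adjusted p under 0.05). Values are the RS effect minus the PD effect in log2 on the deposited scale, where the median over all tested genes was -0.16. Spermatid genes lay below 0, with -2.32 for Acrv1, -2.2 for Gtsf1l, -2.19 for Eqtn, -2.17 for Fam209, -2.06 for Cabyr, -1.92 for Spata21, -1.74 for Fhl5, -1.61 for Fam205c, -1.44 for Spata20 and -1.16 for Izumo3. In these 10 genes both PD Setd2KO libraries were above both PD WT libraries, beside a higher sum of round spermatid markers in PD Setd2KO, whose part in the values was not tested. Values below 0 were also found for Dscc1 (-1.94), Sec11c (-1.93), Slc35g3 (-1.79), Necab3 (-1.43), BC100451 (-0.89) and Nup153 (-0.57). Values above 0 were found for Epha7 (1.07), Idh1 (0.95), Ghrl (0.89), Cyb5r2 (0.87), Bub1b (0.79), Wipi1 (0.78), Nap1l4 (0.69) and Ptpdc1 (0.62). The calls of Nup153, Ptpdc1, Bub1b, Nap1l4 and BC100451 were each lost on leaving out at least 1 library: without RS Setd2KO replicate 1, for example, their values were -0.55, 0.57, 0.60, 0.65 and -0.66.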

How the results depend on the processing

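With peaks scored at least 100 there were 2324 RS-only peaks and 162 gained genes, and higher and lower calls numbered 60 and 50 from PD to RS in WT, 62 and 51 in Setd2KO, 35 and 32 for Setd2KO in RS, 49 and 11 in PD, and 17 and 45 for the difference between effects. With at least 50% of the gene covered there were 58 genes, with 14 and 23, 16 and 24, 12 and 12, 12 and 8, and 8 and 12 calls; both rules keep fewer genes by construction. Quantile normalization gave 41 higher and 38 lower calls in PD and 61 above 0 for the difference; upper-quartile scaling gave 30 lower in PD and 44 above 0. The cause was not tested. Leaving out 1 library gave, in the same order, 108 to 116 and 78 to 99, 111 to 121 and 84 to 96, 36 to 70 and 36 to 63, 66 to 102 and 13 to 21, and 20 to 39 and 67 to 91. A 1 kb gap to PD WT peaks gave 105 higher and 82 lower calls in WT. With the replicate block the counts were 115 and 88, 117 and 91, 63 and 55, 96 and 18, and 27 and 80. Gained genes with 1 interval and no overlapping gene, a choice made after seeing the data, gave 98 and 78, 99 and 79, 57 and 47, 89 and 15, and 26 and 73. The pseudocount of 0.1 ended 2 calls and the absence of a filter 11, over 200 values of named genes. No named gene reversed; 99 of 1600 values lost their call when 1 library was left out. With 2 libraries per group and 1 peak list, small changes and single peaks are the least certain.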
